A study of Mus musculus with 6 samples.

Results

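A set of 42 genes that mark macrophages and other leukocytes was examined in the transcriptome of EDL (extensor digitorum longus), a hindlimb muscle made mostly of fast-twitch fibers, among the 24411 genes of the count table. The set was defined by gene symbol, and all 42 symbols were found: 3 pan-leukocyte genes, 3 leukocyte integrins, 4 genes of macrophage and monocyte identity, 4 receptors of tissue-resident macrophages, 5 Fc receptors and their adaptors, 3 subunits of complement C1q, 3 pattern recognition receptors, 2 chemokine receptors, 5 CC and 2 CXC chemokines, 2 cytokines, 4 lymphocyte genes and 2 neutrophil calgranulins. The mAktDKO mice carried floxed Akt1 and Akt2 alleles and Cre recombinase under the control of the Mlc1f promoter, which works mainly in fast-twitch fibers. The control mice carried the same floxed alleles without Cre. All 6 mice, 3 of each genotype, were of the C57BL/6J strain and 50 weeks old. RNA came from the whole muscle, so that the reads of a leukocyte gene reflect both the number of such cells and the RNA in each of them, which cannot be told apart here.

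Macrophages are the most abundant leukocytes of resting skeletal muscle. Resident cells lie in the connective tissue around the fibers and clear debris through scavenger and Fc receptors, and monocytes that carry the chemokine receptor Ccr2 are recruited from the blood after injury. C1q, the recognition unit of the classical complement pathway, is made largely by tissue macrophages. Chemokines of the CXC family such as Cxcl12 and Cxcl14 are made chiefly by stromal cells rather than by leukocytes, and they attract cells that bear the matching receptors.

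Levels are given as CPM, the counts divided by the library total and put on a common scale between mice by the TMM method. Differences are given as log2 fold changes of the mAktDKO against the control mice, with their standard error (SE). Total estimated counts were between 13738795 and 15445523 per mouse, and at this depth 3 counts, taken as the floor of detection, correspond to 0.194 to 0.218 CPM of the library total before TMM scaling, which covers counting error only. Akt2 was lower in every mAktDKO mouse (49.1 to 52.7 CPM) than in every control mouse (133 to 172 CPM), which gave -1.55 on the log2 scale (SE 0.11, edgeR adjusted p = 0.000923). Akt1 was at 51.4 to 58.9 CPM in the mAktDKO group and at 65.5 to 66.5 CPM in the controls (log2 fold change -0.25, SE 0.080, edgeR adjusted p = 0.115). All 14 muscle fiber genes examined were expressed. The control columns of the table are numbered 2 to 4, and these numbers are used below as names of the mice. The control mouse 2 stood apart: the chi-square of its counts against those of the mAktDKO mice was 51.4 to 69.8 per degree of freedom, compared with 17.3 to 28.5 for the other control mice. It also had the lowest level of all 6 mice in 25 of the 30 tested members. Over all 12892 tested genes it was the lowest mouse in 3710 and the highest in 3745. The log2 fold changes without control mouse 2 are given for the tested members that have values per mouse below.

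Most of the macrophage and leukocyte genes had a higher level in EDL of the mAktDKO mice, but no single gene passed the threshold in edgeR's test. The fitted log2 fold changes ranged from -0.24 (Cd14) to 1.21 (Cx3cr1). Of the 30 members with enough counts to be tested, 28 had a log2 fold change above 0, compared with 52.5% of the 12892 genes tested. The median log2 fold change was 0.46 over the 30 members and 0.017 over all genes. No member passed the adjusted p threshold of 0.01 by the quasi-likelihood test of edgeR, adjusted by Benjamini-Hochberg over all genes, which 0.0233% of all genes passed, and 0 members passed 0.05, which 1.18% of all genes passed. At an unadjusted p under 0.05, 12 members were higher and 0 lower, that is 40% of the tested members, while 11.4% of all genes were higher and 13.1% lower at that level. In 12 members every mAktDKO mouse lay above every control mouse, which was also true of 14.6% of all genes. It held for 9 of the 25 tested members in which all control mice reached the cutoff of the filter on low counts. With DESeq2's Wald test, 1 member, Cxcl12, passed the adjusted p threshold of 0.01, which 1.95% of all genes passed. DESeq2 gave no adjusted p for 24 of the 42 members, Ccr2 and Cx3cr1 among them. The total behind the 1.95% also holds genes without an adjusted p.

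**Figure D1:**
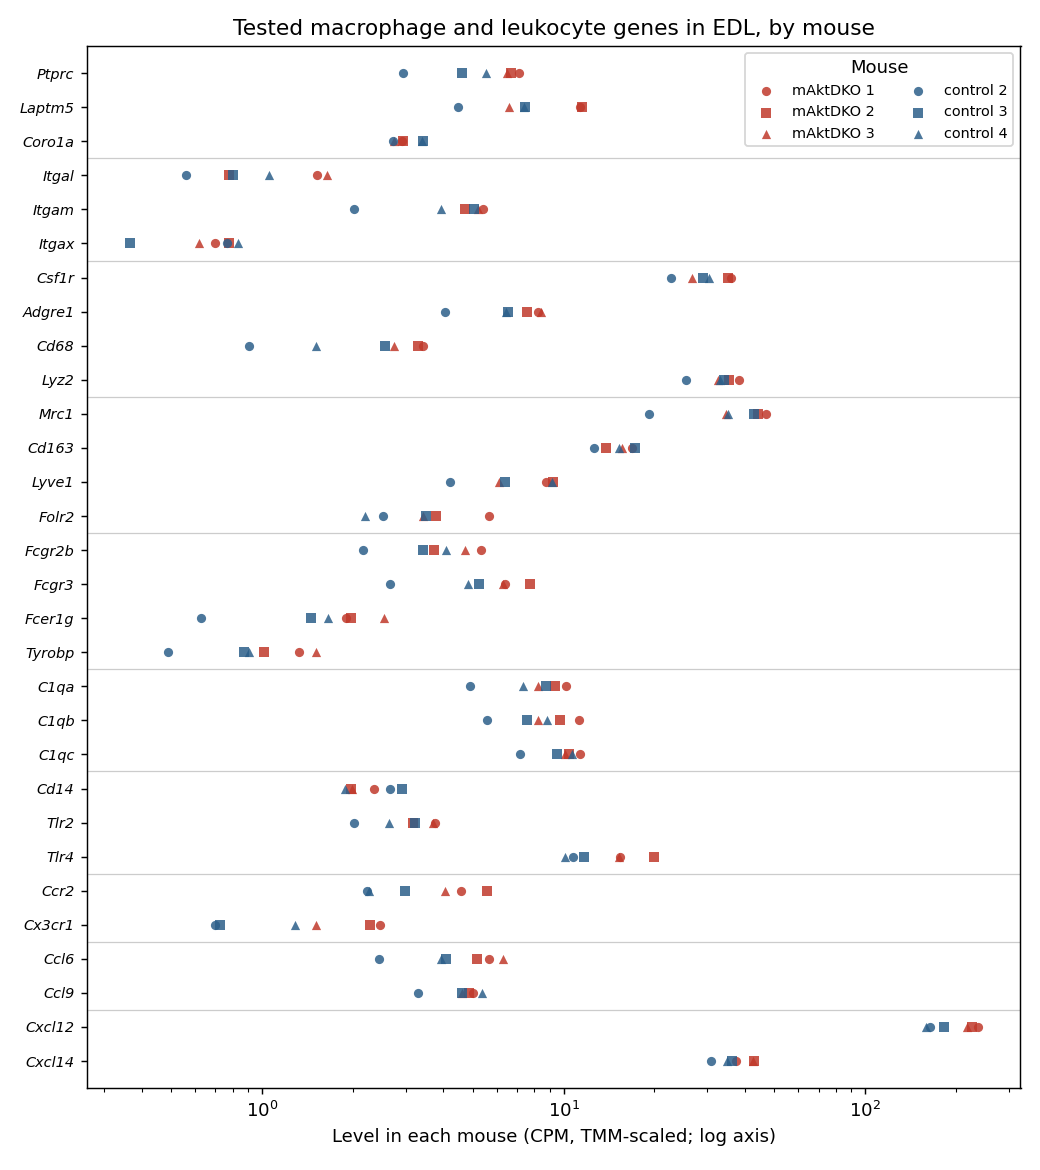
Level of each of the 30 tested members in each mouse, in TMM-scaled CPM on a log axis; each symbol is 1 mouse, red for mAktDKO and blue for control, and lines separate the functional groups. The levels span from under 1 CPM (Itgax, Tyrobp) to over 200 CPM (Cxcl12), and the blue circle of control mouse 2 is the leftmost symbol in 25 of the 30 genes.

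The mean log2 CPM over the 30 tested members was 2.92, 2.82 and 2.74 in the mAktDKO mice 1 to 3, and 2.01, 2.54 and 2.53 in the controls 2 to 4. Every mAktDKO mouse was above every control mouse, but the gap between the lowest mAktDKO mouse and the highest control mouse was smaller than the gap between control mouse 2 and the other control mice. The groups differed by 0.47, with standard deviations of 0.088 among the mAktDKO and 0.30 among the control mice (n = 3 each). Without control mouse 2 the difference was 0.31 and the median log2 fold change 0.29, and the groups still did not overlap. Leaving out Cxcl12 and Cxcl14, which are mostly stromal genes, gave a difference of 0.47. The summed level of the other 40 members was 282.5, 269.7 and 235.3 CPM compared with 154.2, 232.5 and 223.3 CPM. In that sum mAktDKO mouse 3 lay only slightly above control mouse 3. By functional group, the sums of the pan-leukocyte, macrophage identity, resident macrophage and C1q genes overlapped between the genotypes. Those of the other groups with tested genes did not. No test was made of the mean log2 CPM or of the summed level, since the genes were chosen with results of these data known.

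**Figure D2:**
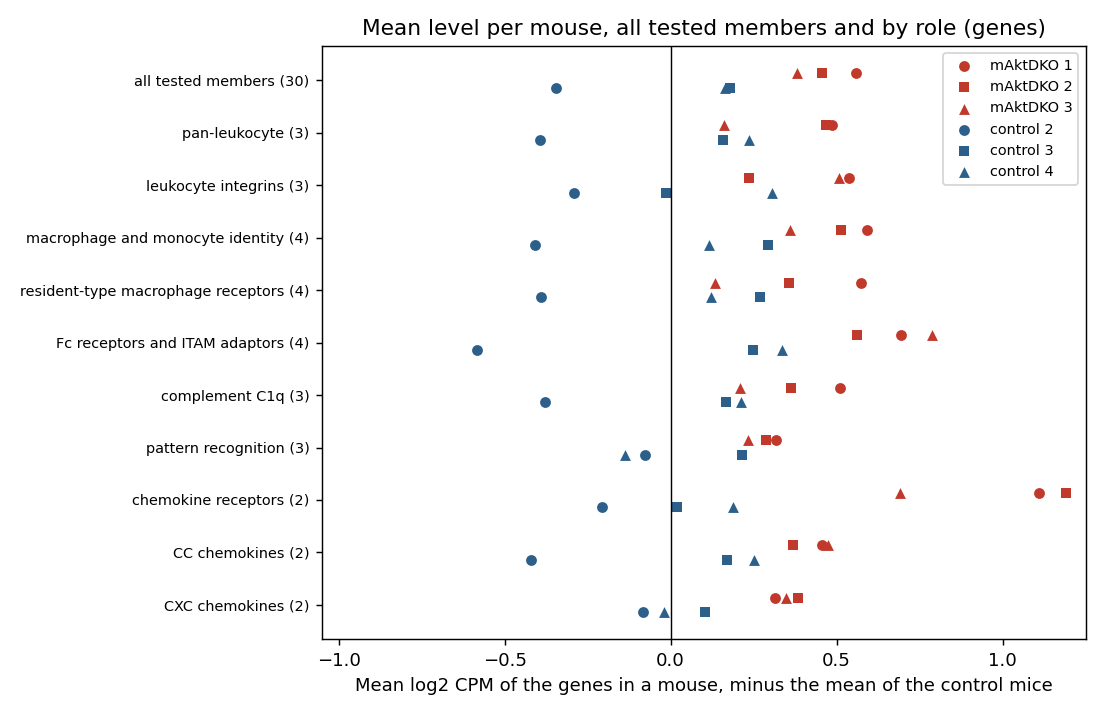
Mean log2 CPM of the tested genes in each mouse, minus the mean of the 3 control mice, for all 30 members and for each functional group with tested genes; red symbols are mAktDKO and blue symbols control mice. The chemokine receptors show the widest separation between the genotypes (difference 1.00), and control mouse 2 lies far to the left in most groups.

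The pan-leukocyte genes were examined first. Ptprc, which encodes CD45, the phosphatase on the surface of all nucleated blood cells, lies on chromosome 1 from 138062861 to 138175708 of mm10. It was at 7.10, 6.71 and 6.51 CPM in the mAktDKO group, against 2.94, 4.60 and 5.52 CPM in the controls, so that the groups did not overlap. The means were 6.78 ± 0.30 and 4.35 ± 1.31 CPM (SD, n = 3), and the log2 fold change was 0.64 (SE 0.21, edgeR adjusted p = 0.125). It was 0.42 without control mouse 2. Laptm5, a lysosomal membrane protein of hematopoietic cells, was at 11.3, 11.5 and 6.58 CPM compared with 4.47, 7.44 and 7.41 CPM. Its log2 fold change was similar (0.61, SE 0.26, edgeR adjusted p = 0.182), but mAktDKO mouse 3 lay below the control mice 3 and 4, and without control mouse 2 it was 0.41. Coro1a, an actin-binding protein of leukocytes, was 2.87 ± 0.11 CPM in the mAktDKO and 3.19 ± 0.40 CPM in the controls (SD, n = 3) and is 1 of the 2 tested members with a log2 fold change below 0 (-0.15, edgeR adjusted p = 0.65; -0.25 without control mouse 2).

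Of the genes that identify macrophages and monocytes, Adgre1 and Cd68 differed most. Adgre1, which encodes the mouse macrophage antigen F4/80 (chromosome 17, 57358691 to 57483527), was at 8.24, 7.55 and 8.43 CPM in the mAktDKO group, against 4.06, 6.57 and 6.43 CPM in the controls. Cd68, a protein of macrophage lysosomes (chromosome 11, 69664213 to 69666153), was at 3.42, 3.29 and 2.74 CPM compared with 0.909, 2.55 and 1.51 CPM. In both genes every mAktDKO mouse was above every control mouse. The log2 fold change was 0.51 for Adgre1 (SE 0.19, edgeR adjusted p = 0.149) and 0.93 for Cd68 (SE 0.33, edgeR adjusted p = 0.141), and without control mouse 2 it was 0.31 and 0.63. The more abundant genes of this group differed less. Csf1r, the receptor for the growth factor on which macrophages depend, was at 35.8, 35.2 and 26.6 CPM compared with 22.7, 29.0 and 30.4 CPM, a log2 change of 0.25 (SE 0.15, edgeR adjusted p = 0.311). Lyz2, the lysozyme of myeloid cells, was at 38.0, 35.3 and 32.4 CPM compared with 25.5, 33.9 and 32.9 CPM, a log2 change of 0.20 (SE 0.12, edgeR adjusted p = 0.336). In Csf1r and Lyz2 the groups overlapped, with mAktDKO mouse 3 inside the control range, and without control mouse 2 their log2 fold changes were 0.13 and 0.077. Lyz2 shares reads with its neighboring copy Lyz1, and the sum of both genes gave a log2 change of 0.23 (edgeR adjusted p = 0.241).

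The receptors of resident macrophages overlapped between the genotypes. Mrc1, the mannose receptor CD206, was the most abundant of them, at 47.0, 44.0 and 34.6 CPM in the mAktDKO group, against 19.2, 42.7 and 35.2 CPM in the controls. Cd163, the scavenger receptor for hemoglobin, was at 16.9, 13.8 and 15.6 CPM compared with 12.6, 17.2 and 15.3 CPM. Lyve1, a hyaluronan receptor found on perivascular macrophages and on lymphatic vessels, was at 8.75, 9.23 and 6.10 CPM compared with 4.19, 6.42 and 9.15 CPM. In all 3 genes the control mice 3 and 4 lay within or close to the mAktDKO range and control mouse 2 lay lowest. The log2 fold changes were 0.37 for Mrc1 (SE 0.25, edgeR adjusted p = 0.371), 0.038 for Cd163 (SE 0.14, edgeR adjusted p = 0.887) and 0.29 for Lyve1 (SE 0.27, edgeR adjusted p = 0.521). Without control mouse 2 they were 0.10, -0.077 and 0.049. Folr2, a folate receptor of resident macrophages, was at 5.64, 3.77 and 3.43 CPM compared with 2.52, 3.50 and 2.19 CPM. Its groups overlapped slightly, and its log2 fold change was 0.64 (SE 0.26, edgeR adjusted p = 0.175), or 0.59 without control mouse 2.

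The 3 leukocyte integrins, which bind cells to vessel walls and matrix, overlapped between the genotypes. Itgam, the CD11b chain of monocytes, macrophages and neutrophils, was at 5.39, 4.73 and 5.21 CPM in the mAktDKO group, against 2.03, 5.03 and 3.93 CPM in the controls (log2 fold change 0.48, SE 0.28, edgeR adjusted p = 0.312). The log2 fold change of Itgam was 0.19 without control mouse 2. Itgal and Itgax, the CD11a and CD11c chains, were mostly near 1 CPM or below, with log2 changes of 0.70 and 0.095 (edgeR adjusted p = 0.303 and 0.907), and both reached the filter cutoff of 0.678 CPM of the unscaled total in only 2 of the 3 control mice.

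Fc receptors bind the constant part of antibodies, and Fcer1g and Tyrobp are the adaptors through which they and related receptors signal. Fcgr3, an activating receptor (chromosome 1, 171051174 to 171064935), was at 6.40, 7.73 and 6.31 CPM in the mAktDKO group, against 2.66, 5.25 and 4.84 CPM in the controls, without overlap. Its log2 fold change was 0.69 (SE 0.24, edgeR adjusted p = 0.135). Fcgr2b, the inhibitory receptor, was at 5.33, 3.71 and 4.73 CPM compared with 2.17, 3.43 and 4.08 CPM (log2 fold change 0.51, SE 0.25, edgeR adjusted p = 0.244). They were 0.43 for Fcgr3 and 0.29 for Fcgr2b without control mouse 2. These 2 genes share part of their sequence and their estimated counts were not whole numbers, but their sum was whole in every mouse. The sum was 185, 191 and 161 counts in the mAktDKO and 69, 119 and 118 counts in the controls, a log2 change of 0.61 (SE 0.21, edgeR adjusted p = 0.127). The adaptors were less abundant. Fcer1g was at 1.90, 1.98 and 2.54 CPM compared with 0.629, 1.46 and 1.66 CPM, and Tyrobp at 1.33, 1.02 and 1.51 CPM compared with 0.489, 0.875 and 0.907 CPM. Both adaptors were higher in every mAktDKO mouse, with log2 changes of 0.78 and 0.76 (SE 0.35 for both, edgeR adjusted p = 0.212 and 0.22), and without control mouse 2 these were 0.45 and 0.52. The high-affinity receptor Fcgr1 had 15, 6 and 13 counts compared with 6, 4 and 5 counts and was not tested.

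The 3 subunits of C1q are encoded side by side on chromosome 4 and had similar levels. C1qa was at 10.2, 9.34 and 8.23 CPM in the mAktDKO group, against 4.89, 8.75 and 7.33 CPM in the controls. C1qb was at 11.2, 9.76 and 8.23 CPM compared with 5.59, 7.59 and 8.85 CPM, and C1qc at 11.3, 10.4 and 10.1 CPM compared with 7.20, 9.48 and 10.7 CPM. The groups overlapped in each subunit, and mAktDKO mouse 1 was highest and control mouse 2 lowest, as in Csf1r. The log2 fold changes were 0.41, 0.41 and 0.23 (edgeR adjusted p = 0.244, 0.213 and 0.382), and without control mouse 2 they were 0.20, 0.25 and 0.079.

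Pattern recognition receptors sense microbial products and damaged cells. Tlr4, the receptor for lipopolysaccharide (chromosome 4, 66827584 to 66930284), was at 15.4, 19.9 and 15.3 CPM in the mAktDKO group, against 10.8, 11.7 and 10.1 CPM in the controls, so that all 3 mAktDKO mice were above the control range. The means were 16.9 ± 2.66 and 10.9 ± 0.77 CPM (SD, n = 3), and the log2 fold change was 0.64 (SE 0.13, edgeR adjusted p = 0.0555). Its difference did not rest on control mouse 2, without which the log2 fold change was 0.63 (edgeR adjusted p = 0.0752). Tlr4 is also expressed by endothelial and muscle cells. Its co-receptor Cd14, the second tested member with a log2 fold change below 0, was at 2.35, 1.98 and 1.99 CPM compared with 2.66, 2.92 and 1.89 CPM (-0.24, SE 0.24, edgeR adjusted p = 0.552). Tlr2, a receptor for bacterial lipoproteins, was at 3.74, 3.17 and 3.70 CPM compared with 2.03, 3.21 and 2.65 CPM (log2 fold change 0.43, SE 0.22, edgeR adjusted p = 0.257). The log2 fold changes without control mouse 2 were -0.195 for Cd14 and 0.27 for Tlr2.

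Both chemokine receptors were higher in every mAktDKO mouse, and the fold change of Cx3cr1 exceeded that of every other tested member. Ccr2, the receptor through which inflammatory monocytes leave the bone marrow and enter tissue (chromosome 9, 124101950 to 124113557), was at 4.57, 5.57 and 4.05 CPM in the mAktDKO group, against 2.24, 2.99 and 2.27 CPM in the controls. Cx3cr1, the fractalkine receptor of patrolling monocytes and some macrophages (chromosome 9, 119901616 to 120069879), was at 2.47, 2.28 and 1.51 CPM compared with 0.699, 0.730 and 1.29 CPM. The groups did not overlap in either gene, although control mouse 4 and mAktDKO mouse 3 lay close to each other in Cx3cr1. The log2 fold change was 0.92 for Ccr2, a 1.89-fold difference (SE 0.21, edgeR adjusted p = 0.06), and 1.21 for Cx3cr1, a 2.31-fold difference (SE 0.34, edgeR adjusted p = 0.0891). Without control mouse 2 the values were 0.85 and 1.05. Cx3cr1 had only 10 to 17 counts in a control mouse, and fewer than 3 control mice reached the filter cutoff in Cx3cr1, as in Itgal, Itgax, Fcer1g and Tyrobp. Without these 5 genes the median log2 fold change of the set was 0.43.

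**Figure D3:**
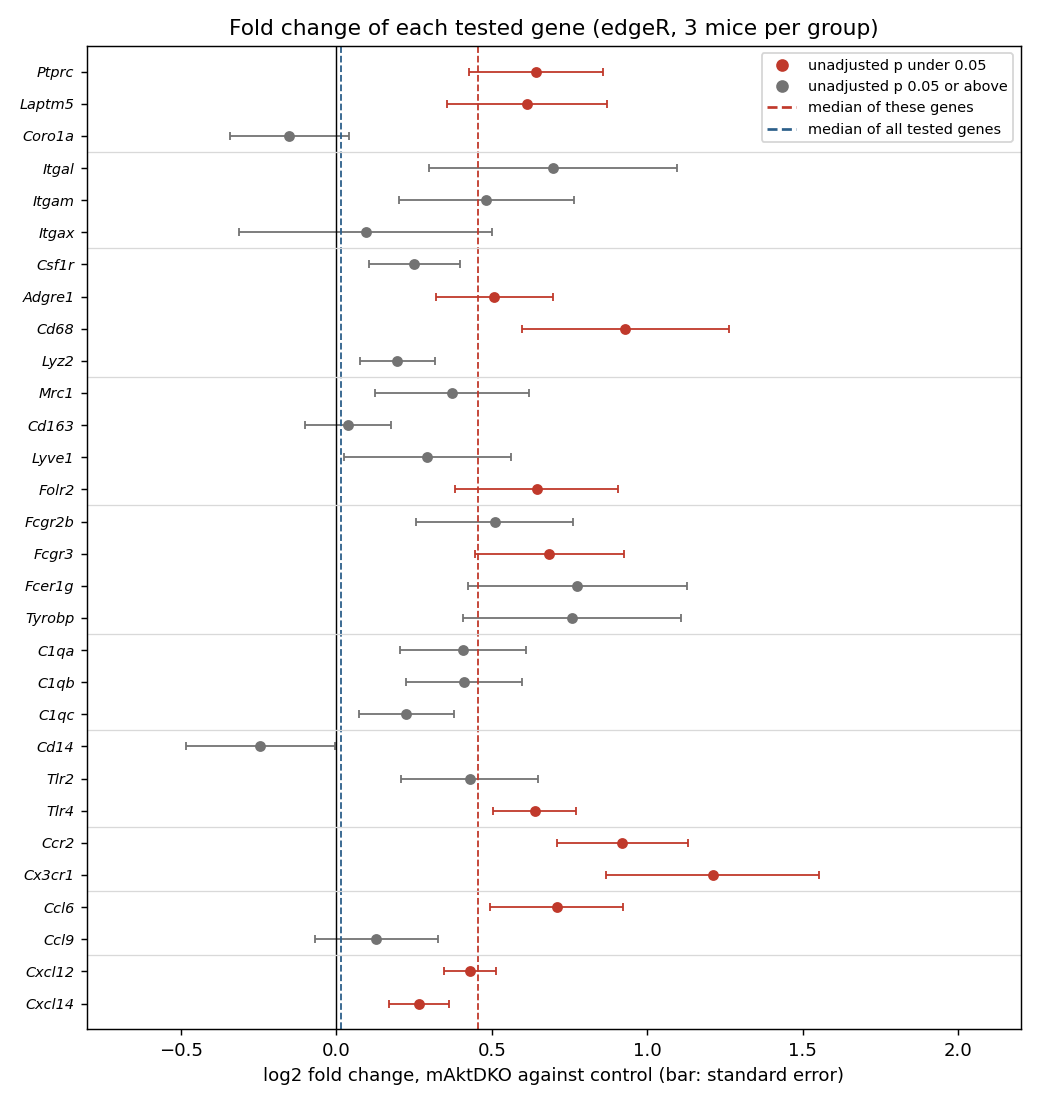
Log2 fold change (mAktDKO against control) of each of the 30 tested members with its standard error, from edgeR; red points have an unadjusted p under 0.05 and the dashed lines mark the medians of the members (0.46) and of all tested genes (0.017). All points but those of Coro1a and Cd14 lie to the right of 0, and no member passed the adjusted p threshold of 0.01.

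Ccl2 and Ccl7, which are ligands of Ccr2, had few counts, as did Ccl8. Ccl2 had 4, 2 and 3 counts in the mAktDKO group, against 3, 7 and 6 counts in the controls. Ccl7 had at most 4 counts and Ccl8 at most 11 counts in a mouse. Among the other CC chemokines, Ccl6, a chemokine of myeloid cells (chromosome 11, 83587882 to 83593087), was at 5.64, 5.15 and 6.31 CPM in the mAktDKO group, against 2.45, 4.09 and 3.93 CPM in the controls. Every mAktDKO mouse was above every control mouse, and the log2 fold change was 0.71 (SE 0.21, edgeR adjusted p = 0.101), or 0.50 without control mouse 2. Its neighbor Ccl9 (chromosome 11, 83572919 to 83578636) was at 5.01, 4.85 and 4.59 CPM compared with 3.29, 4.60 and 5.37 CPM, overlapped between the groups and had a log2 change of 0.13 (SE 0.20, edgeR adjusted p = 0.713), or -0.048 without control mouse 2.

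The CXC chemokines had the smallest standard errors of the 30 tested members. Cxcl12, also called SDF-1, retains leukocytes and progenitor cells through the receptor Cxcr4, and its gene lies on chromosome 6 from 117168535 to 117181367. It was at 237, 226 and 217 CPM in the mAktDKO group, against 164, 182 and 159 CPM in the controls, without overlap. The means were 227 ± 9.71 and 168 ± 12.0 CPM (SD, n = 3), and the log2 fold change was 0.43, a 1.35-fold difference (SE 0.084, edgeR adjusted p = 0.0506). With DESeq2's Wald test the log2 fold change was 0.42 and the adjusted p 0.0013, and over the other settings tried, those that left out 1 mouse included, the edgeR adjusted p was between 0.0378 and 0.234. Cxcl14, on chromosome 13 from 56288643 to 56296551, was at 37.2, 42.9 and 42.4 CPM compared with 30.8, 36.2 and 34.9 CPM. Its groups did not overlap either, but the distance was small, with a log2 change of 0.27 (SE 0.097, edgeR adjusted p = 0.146). Leaving out control mouse 2 gave 0.41 for Cxcl12 and 0.20 for Cxcl14. Per kilobase of the longest coding transcript, Cxcl12 was the most abundant member, at 40.3 CPM per kb in the mAktDKO and 29.9 CPM per kb in the controls, followed by Lyz2 (26.8 and 23.4) and Cxcl14 (22.4 and 18.6). Ptprc by comparison was at 1.33 and 0.857 CPM per kb.

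Upstream sequences are shown for the 4 members with an unadjusted p under 0.05 that have a single RefSeq start site and no annotated exon in the window, to show how the promoters of the set vary in base composition. They are the 250 bases before the RefSeq start site (build GRCm38.p6), written 5′ to 3′ on the strand of the gene, with CG dinucleotides in capitals. Cxcl12 lies at chr6:117168285-117168534 on the plus strand. Cxcl14 lies at chr13:56296552-56296801, Ccl6 at chr11:83593088-83593337 and Cd68 at chr11:69666171-69666420, all on the minus strand.
Cxcl12: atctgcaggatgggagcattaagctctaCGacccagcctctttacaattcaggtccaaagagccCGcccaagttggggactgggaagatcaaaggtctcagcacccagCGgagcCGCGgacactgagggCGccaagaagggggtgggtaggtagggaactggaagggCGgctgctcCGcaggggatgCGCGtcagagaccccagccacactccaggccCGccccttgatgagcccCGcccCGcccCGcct
Cxcl14: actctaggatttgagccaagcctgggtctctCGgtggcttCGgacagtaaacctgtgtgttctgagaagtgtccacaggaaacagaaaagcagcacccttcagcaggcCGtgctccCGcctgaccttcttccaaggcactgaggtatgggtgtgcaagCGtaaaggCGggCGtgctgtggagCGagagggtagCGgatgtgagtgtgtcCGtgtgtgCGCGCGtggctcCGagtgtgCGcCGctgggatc
Ccl6: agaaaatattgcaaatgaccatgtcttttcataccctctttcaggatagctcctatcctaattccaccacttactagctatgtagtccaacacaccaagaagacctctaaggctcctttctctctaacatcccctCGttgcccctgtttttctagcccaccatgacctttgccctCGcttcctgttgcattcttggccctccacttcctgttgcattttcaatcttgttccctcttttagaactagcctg
Cd68: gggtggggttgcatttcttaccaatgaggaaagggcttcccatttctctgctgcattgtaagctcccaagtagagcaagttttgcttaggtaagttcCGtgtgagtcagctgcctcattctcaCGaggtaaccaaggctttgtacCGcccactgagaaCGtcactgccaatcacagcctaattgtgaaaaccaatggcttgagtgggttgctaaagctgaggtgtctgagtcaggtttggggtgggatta
The stromal chemokines Cxcl12 and Cxcl14 have 14 and 16 CG dinucleotides and a GC content of 64.4% and 59.6%, whereas the myeloid genes Ccl6 and Cd68 have 2 and 4 and a GC content of 45.2% and 49.2%. This does not divide stromal from leukocyte genes, since the windows of Laptm5 (61.2% GC) and Tlr2 (62.8% GC, 11 CG dinucleotides) were also rich in GC. RefSeq promoters were found for 31 of the 42 members, with 35 start sites in all. The median GC content was 49.6% over these 35 and 52.4% over all 32851 promoters, with a median of 4 and 6 CG dinucleotides. The motif GAGGAA, the core that the myeloid transcription factor PU.1 binds, was searched on both strands and was present in 16 of the 35 windows (45.7%) and in 23.3% of all promoters. The 16 include both windows of Fcgr3, which overlap almost fully. They also include the windows of the lymphocyte genes Cd3e, Cd8a and Cd79a, which had almost no counts. In Cd68 the motif begins 225 bases before the start site on the strand shown, and it was not found in the other 3 windows shown. The TATA motif TATAAA, also searched on both strands, was present in 20% of the member windows and 12.4% of all. These are matches of letters only, and binding was not measured.

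Apart from Cd4, the inflammatory cytokines and the markers of lymphocytes and neutrophils were near or below the floor of 3 counts. Il1b, the cytokine of the inflammasome, had 2, 4 and 3 counts in the mAktDKO group, against 2, 0 and 3 counts in the controls. Tnf had 3, 5 and 0 counts compared with 1, 0 and 3 counts. At this depth, only a large difference in these cytokines could therefore have been seen. The T cell genes Cd3e and Cd8a had 1 count each over all 6 mice, and the B cell gene Cd79a had 2 counts in mAktDKO mouse 2, 1 count in mAktDKO mouse 3 and 0 in every control mouse. Cd4, a co-receptor of helper T cells that some myeloid cells also carry, had 5, 16 and 2 counts compared with 2, 3 and 6 counts, so that 1 mAktDKO mouse stood above the others. The neutrophil calgranulins S100a8 and S100a9 had at most 4 counts in a mouse, and S100a9 had 3, 2 and 4 counts compared with 0, 1 and 0 counts. Altogether 12 of the 42 members were below the filter on low counts, with a maximum of 16 counts in a mouse, and no fold change is given for them.

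Other lists of leukocyte genes were also examined. Of 16 further leukocyte genes, 15 were tested, 14 had a log2 fold change above 0, and the median was 0.35. At an unadjusted p under 0.05, 1 of the 15 was higher and 0 lower, again beside 11.4% of all genes that were higher. The lowest p was that of Arhgdib, a signaling protein abundant in blood cells (log2 fold change 0.27, SE 0.12, edgeR adjusted p = 0.203). Of 47 further monocyte and macrophage genes, 38 were tested, 30 had a log2 fold change above 0, and the median was 0.24. In this list 4 genes were higher and 1 lower at an unadjusted p under 0.05, and the 4 higher genes are a share of the 38 close to the 11.4% of all genes. Higher were Fyb, an adaptor of immune receptor signaling (0.62), the transcription factor Maf (0.35), the cytokine receptor subunit Csf2rb (0.59) and Siglec1, the sialoadhesin of tissue macrophages (0.48), with edgeR adjusted p between 0.119 and 0.183. The mean log2 CPM of both lists overlapped between the genotypes, unlike that of the members.

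Of 49 genes of inflammatory signaling, 31 were tested and 28 had a log2 fold change above 0, with a median of 0.27. At an unadjusted p under 0.05, 7 of the 31 were higher and 0 lower, beside 11.4% of all genes that were higher. In 12 of the 31 every mAktDKO mouse was above every control mouse, beside 14.6% of all genes. The 4 genes with the lowest p were 3 of the complement system and a receptor for tumor necrosis factor. Serping1, the inhibitor of the first complement component, was at 86.3, 101 and 91.2 CPM compared with 62.4, 74.0 and 73.6 CPM (log2 fold change 0.41, SE 0.098, edgeR adjusted p = 0.066). Cfb, factor B of the alternative pathway, was at 9.13, 10.96 and 7.61 CPM compared with 5.31, 5.40 and 6.50 CPM (log2 fold change 0.69, edgeR adjusted p = 0.0691). The protease C1ra, a partner of C1q, was at 21.0, 24.1 and 20.6 CPM compared with 13.7, 16.8 and 17.3 CPM (log2 fold change 0.46, edgeR adjusted p = 0.0757). Tnfrsf1b was at 11.7, 8.93 and 9.39 CPM compared with 6.85, 7.88 and 6.12 CPM (log2 fold change 0.52, edgeR adjusted p = 0.0965). In these 4 genes the groups did not overlap. Serping1 and C1ra are made largely by stromal cells.

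**Figure D4:**
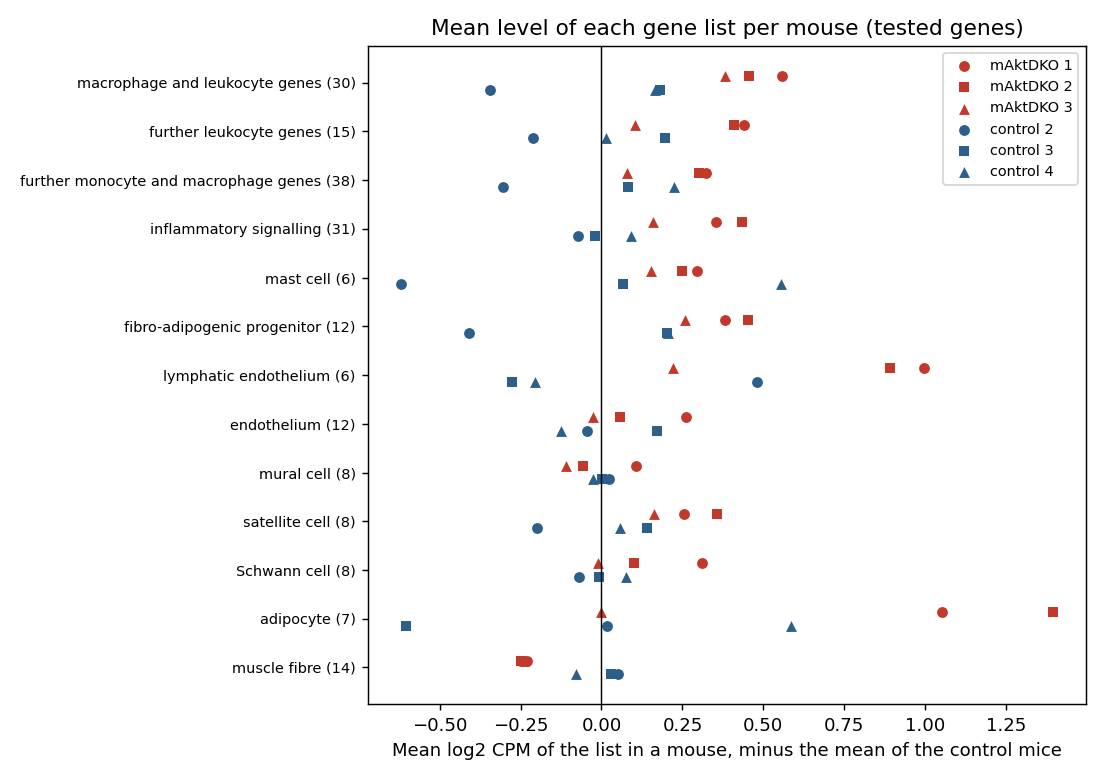
Mean log2 CPM of the tested genes of each list in each mouse, minus the mean of the 3 control mice; red symbols are mAktDKO and blue symbols control mice, and the number of tested genes stands in parentheses. The fibro-adipogenic list has a similar order of mice to that of the 30 members, with control mouse 2 lowest, and the muscle fiber list lies to the left in all 3 mAktDKO mice.

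Among markers of other cells of the muscle, most fibro-adipogenic genes had log2 fold changes above 0 and most muscle fiber genes below 0. Of 12 genes of fibro-adipogenic progenitors, the connective tissue cells between the fibers, 11 had a log2 fold change above 0 (median 0.37), and 5 of the 12 were higher and 0 lower at an unadjusted p under 0.05, beside 11.4% of all genes that were higher. Their mean log2 CPM did not overlap between the genotypes, as for the members, at 7.63, 7.71 and 7.51 compared with 6.84, 7.456 and 7.458 (difference 0.36). Their summed level, most of it Col1a1, overlapped slightly (19510 to 22880 CPM in the mAktDKO and 8469 to 19630 CPM in the controls), and control mouse 2 was the lowest mouse in 11 of the 12 genes. Dcn, the matrix proteoglycan decorin, was at 587, 670 and 699 CPM compared with 372, 469 and 477 CPM (log2 fold change 0.57, SE 0.12, edgeR adjusted p = 0.0539). Of 14 muscle fiber genes, 12 had a log2 fold change below 0 (median -0.22), and 6 were lower and 1 higher at an unadjusted p under 0.05, beside 13.1% and 11.4% of all genes. Mb, the myoglobin of oxidative fibers, was at 811, 769 and 895 CPM compared with 2821, 1783 and 1756 CPM (log2 fold change -1.36, SE 0.18, edgeR adjusted p = 0.0206). The part of the connective tissue and fiber transcripts in the result for the macrophage and leukocyte genes was not tested.

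Of 8 satellite cell genes, which mark the stem cells of muscle, 7 had a log2 fold change above 0 (median 0.17). The mean log2 CPM of this list was 2.65, 2.75 and 2.56 in the mAktDKO mice and 2.196, 2.54 and 2.45 in the controls, without overlap and with control mouse 2 again lowest. The mean log2 CPM of 7 tested erythrocyte genes was 4.71, 4.29 and 3.67 compared with 3.14, 2.88 and 2.82, but their summed level overlapped between the genotypes, at 369.8, 298.0 and 195.0 CPM compared with 232.3, 217.0 and 159.8 CPM. The hemoglobin gene Hbb-bs was at 9.23 to 23.5 CPM in the mAktDKO mice and had 0 counts in every control mouse (edgeR adjusted p = 0.018), but hemoglobin genes are near-identical copies between which reads can be divided. Its neighbor copy Hbb-bt was at 9.74 to 23.1 CPM compared with 8.997 to 13.2 CPM, with overlap. The part of these cells in the result was not tested.

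The median of the log2 fold changes was 0.041 over 12 endothelial genes, with a summed level of 892.6 to 1013 CPM in the mAktDKO and 787.4 to 953.2 CPM in the controls. Of 6 lymphatic endothelial genes, 3 were higher at an unadjusted p under 0.05, beside 11.4% of all genes, namely Reln (0.70), Pdpn (0.41) and Prox1 (0.39), with edgeR adjusted p between 0.0852 and 0.175. The summed level of this list was 70.83 to 88.20 CPM compared with 45.89 to 63.97 CPM, and Reln was its most abundant gene in every mouse. The mean log2 CPM of the list overlapped between the genotypes, at 3.22, 3.11 and 2.44 compared with 2.70, 1.945 and 2.016, and in both measures control mouse 2 was the highest of the control mice. The adipocyte genes had a median of 1.00 over 7 tested genes but overlapped between the genotypes in mean log2 CPM. At an unadjusted p under 0.05, 5 of these 7 were higher and 0 lower, beside 11.4% of all genes that were higher. In 6 of the 7 genes mAktDKO mouse 2 was highest, and in the seventh, Car3, control mouse 4. The medians were -0.0071 over 8 mural cell genes, 0.26 over 8 Schwann cell genes and 0.16 over 6 mast cell genes. Of the 13 T and NK cell genes in the table only Cd28 was tested, at 8.05, 6.53 and 5.14 CPM compared with 3.22, 4.89 and 3.40 CPM (log2 fold change 0.78, SE 0.23, edgeR adjusted p = 0.0943), while the defining gene Cd3e was at or near 0 in all mice. None of 7 B cell genes passed the filter, nor did 7 of 9 neutrophil and 8 of 9 dendritic cell genes. Zbtb46, a transcription factor of dendritic and endothelial cells and the tested gene of the dendritic list, was at 6.15, 5.93 and 5.35 CPM compared with 7.34, 6.57 and 6.43 CPM, below every control mouse (log2 fold change -0.22, SE 0.14, edgeR adjusted p = 0.339). The tested neutrophil genes Lcn2 and Mmp9 overlapped between the genotypes, with log2 changes of -0.59 and 0.039 (edgeR adjusted p = 0.581 and 0.983).

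**Figure D5:**
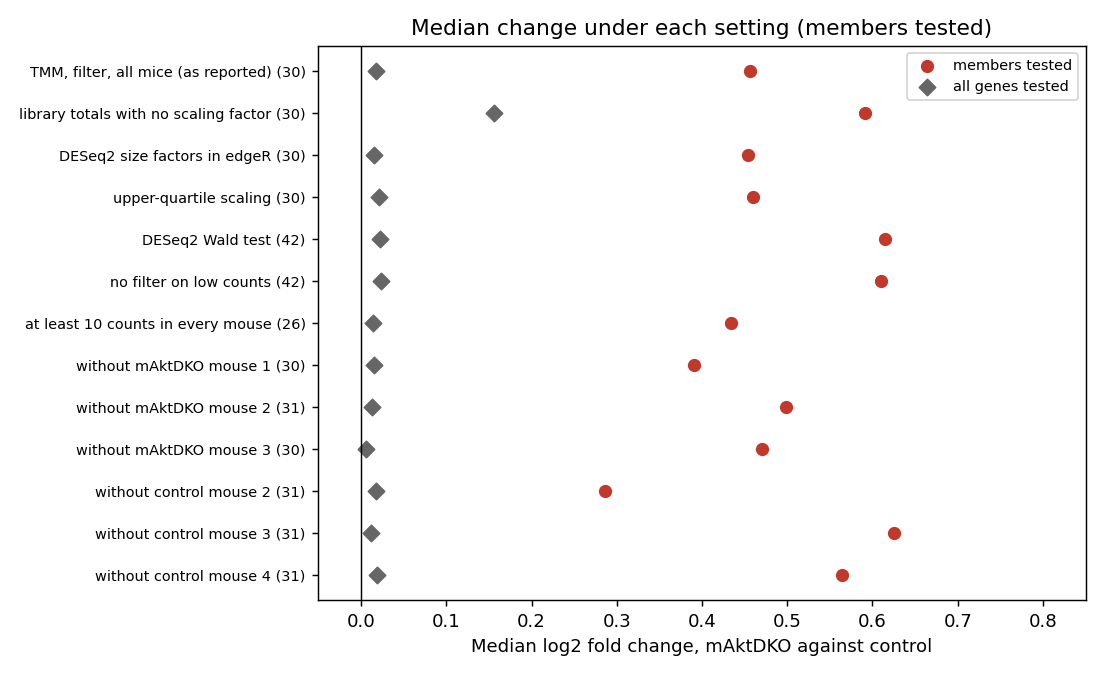
Median log2 fold change of the tested members (red circles) and of all tested genes (gray diamonds) under each setting, with the number of tested members in parentheses. The members' median stays between 0.29 (without control mouse 2) and 0.63 (without control mouse 3) and above that of all genes in each setting drawn, while library totals move both medians to the right.

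The members that kept an unadjusted p under 0.05 when any 1 mouse was left out were Ptprc, Tlr4, Ccr2, Cx3cr1, Ccl6 and Cxcl12. Ptprc came close to that level, with a largest unadjusted p of 0.0486 by edgeR's quasi-likelihood test. The share of all genes that stayed under it in every such fit was not counted, so these members have no background beside them. Without control mouse 2, 8 of 31 tested members were higher at an unadjusted p under 0.05, while 9.05% of all genes were higher at that level. Laptm5, Cd68, Folr2 and Cxcl14 then had an unadjusted p above 0.05 with fewer samples, and of these the log2 fold change of Folr2 moved little (0.64 to 0.59). The number was 8 without mAktDKO mouse 1 (8.53% of all genes), 11 without mAktDKO mouse 2 (6.28%) and 12 without mAktDKO mouse 3 (9.09%). It was 16 without control mouse 3 (11.3%) and 14 without control mouse 4 (12.5%). With library totals in place of TMM there were 19, but 23% of all genes were then higher at that level, and without a filter on low counts there were 15 of 42 (9.25%). At an adjusted p under 0.05, Tlr4 and Cxcl12 passed with library totals (1.63% of all genes passed), with at least 10 counts in every mouse (2.18%) and with DESeq2 (4.52%), and with no filter Ccr2 passed as well (2.19%).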

How the data were processed

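RNA of EDL from 3 mAktDKO and 3 control mice was measured with rRNA-depleted, directional libraries and paired-end 37 bp reads. The authors aligned them to mm10 with STAR (2.6.1b in the submitters' processing notes). They deposited the expected counts of RSEM 1.3.1, unscaled, for 24411 gene symbols. RSEM divides reads among similar genes, and between 3.363% and 4.088% of the values per mouse were not whole. Control columns numbered 2 to 4 were assigned to the control group only. No 2 columns were identical. The labels number the samples of a genotype without naming animals, so p-values measure the spread between these samples, which are called mice here.

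The counts were rounded, filtered with filterByExpr (minimum count 10, at least 3 mice), scaled by TMM and tested across 12892 genes with the quasi-likelihood test of edgeR 4.0.16 in R 4.3.3, with Benjamini-Hochberg adjustment and a threshold of 0.01 for the adjusted p. The authors used DESeq2. Here DESeq2 1.42.0 was an alternative, with its missing adjusted p-values kept missing (24 of the 42 members). The percentages of all genes given for DESeq2 keep the genes without an adjusted p in their total. The standard error is the log2 fold change divided by the square root of F, and log2 CPM used a prior count of 2. The other alternatives were library totals, DESeq2 size factors, upper-quartile scaling, no filter, at least 10 counts in every mouse, a threshold of 0.05 and each mouse left out. Leaving out Cxcl12 and Cxcl14, summing genes that share reads, and leaving out members with fewer than 3 control mice at the filter cutoff were chosen after seeing the data.

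The 42 members and the 18 marker lists were chosen with earlier results of these data known. Values per mouse are given for members with an unadjusted p under 0.05 or groups that do not overlap, for the best known genes of each role, and for up to 4 genes with the smallest p of another list. Positions and lengths come from the GENCODE annotation of the same build, and promoters from RefSeq. The result of 1 gene of the further monocyte and macrophage list is not reported here.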

Additional observations from a re-analysis of the deposited data

How the results depend on the processing

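The members' median log2 fold change stayed above 0 and above that of all genes in every setting tried. The median was 0.591 with library totals, which moved the median of all genes to 0.156 and left a distance of 0.435 between them. Leaving out 1 mouse gave medians from 0.286 to 0.625 and differences in the mean log2 CPM per mouse from 0.309 to 0.557. The number of members past the adjusted p threshold of 0.01 was 0 in each edgeR setting and 1 with DESeq2 (Cxcl12), the cause of which was not tested. At an unadjusted p under 0.05, 12 members were higher (11.4% of all genes), 19 with library totals (23%), 15 without a filter (9.25%) and 8 to 16 with 1 mouse left out (6.28% to 12.5%). At an adjusted p under 0.05 there were 0 members (1.18% of all genes), but 2 with library totals (1.63%), with at least 10 counts in every mouse (2.18%) and with DESeq2 (4.52%), and 3 without a filter (2.19%). The numbers of lower members were 0 throughout.

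The direction changed in genes near 0: with 1 mouse left out, Itgax ranged from -0.192 (without control mouse 3) to 0.291, Cd163 from -0.0771 (without control mouse 2; -0.0318 without mAktDKO mouse 1) to 0.146, and Ccl9 from -0.0477 (without control mouse 2) to 0.29. Of the genes of other lists, Notch3 was 0.0471 with library totals, Mmp9 was -0.00431 with DESeq2 and between -1.16 and 1.89 with 1 mouse left out. Mcpt4 was between -0.0536 (without control mouse 2) and 0.943, and Tpsb2 between -0.455 and 0.385 (without control mouse 4). The cause was not tested. No paired analysis was possible because the numbers of the control columns (2 to 4) differ from those of the labelled control samples. The depth limits the 12 members below the filter, in which only a large difference could have been seen.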

Other observations

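Among genes outside the set, the median log2 fold change was 1.41 over 9 stress and immediate-early genes, which varied widely between mice. Egr1, a transcription factor induced within minutes of stimulation, was at 71.1, 22.2 and 108 CPM in the mAktDKO group, against 28.6, 19.4 and 6.20 CPM in the controls (log2 fold change 1.88, standard error 0.59, adjusted p = 0.108 in edgeR's quasi-likelihood test). The heat shock gene Hspa1b was at 9.70, 9.64 and 34.5 CPM compared with 6.08, 7.22 and 6.80 CPM (log2 fold change 1.41, standard error 0.47, edgeR adjusted p = 0.125). With 1 mouse left out, the log2 fold change of Hspa1b was between 0.514 and 1.72. In summed level the 9 genes overlapped between the genotypes, from 186.5 to 830.7 CPM in the mAktDKO and from 149.3 to 322.2 CPM in the control mice. The mAktDKO mouse 3 had the highest summed level of these genes and the lowest mean of the macrophage and leukocyte genes among the mAktDKO mice.

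The adipocyte hormone genes Adipoq and Lep were at 16.9, 21.9 and 5.69 CPM and at 5.14, 8.69 and 1.85 CPM in the mAktDKO mice. In the control mice they were at 5.94, 4.60 and 9.53 CPM and at 2.73, 1.39 and 2.57 CPM. The mAktDKO mice 1 and 2 were high and mouse 3 lay within the control range of both genes (edgeR adjusted p = 0.154 and 0.17).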
